A study of Mus musculus with 13 samples.

Results

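Hippocampal interneurons are sorted into classes by the peptides and calcium-binding proteins they make, and 10 of those marker genes are described here: Sst, Cort, Npy, Vip, Cck, Pvalb, Calb2, Tac1, Crh and Pnoc. They were taken by name from the tables of 25025 genes, where all 10 had a row at both ages and all 10 passed the filter on low values. The question was whether a lower level of Sst, seen in 5-month-old Tmem184b mutants, extended to its companions Cort and Npy and to the other interneuron classes, and whether it held at 15 months. Since Sst at 5 months prompted the choice of these genes, its value at that age is given as a description and the other 9 genes are counted apart from it. The other 9 were also chosen with earlier results of these data known, so their counts are descriptions too.

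RNA of whole hippocampi was sequenced from 4 wild type (C57BL/6) and 3 mutant mice at 5 months, and from 3 wild type and 3 mutant mice at 15 months. The mutants were homozygous for a gene trap in Tmem184b (GT/GT, allele Tmem184bGt(IST10294F4)) and of the same C57BL/6 background, and the controls were in-house C57BL/6 mice, littermates where that could be arranged. Tmem184b encodes a transmembrane protein of neurons. The trap is present in every cell, so the comparison is not restricted to interneurons. Sex is not labelled per library. Both sexes were used in both genotypes at 5 months, whereas at 15 months the wild types were all female and the mutants of both sexes, so that genotype and sex cannot be fully told apart there.

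GABAergic interneurons release GABA made by the enzymes Gad1 and Gad2, and most also store a neuropeptide in dense core granules. Somatostatin cells, many of which also make cortistatin or neuropeptide Y, contact the distal dendrites of pyramidal cells, whereas parvalbumin basket cells contact their cell bodies. Cholecystokinin marks a second kind of basket cell (and is also made by pyramidal cells), and vasoactive intestinal peptide and calretinin mark cells that mainly contact other interneurons. Tachykinin 1, corticotropin-releasing hormone and nociceptin are made by smaller or overlapping populations.

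Promoter sequences from RefSeq (GRCm38.p6) were at hand for 7 of the 10 genes; Calb2, Crh and Pnoc have no entry. The 120 bases just upstream of the annotated start are shown for Sst, Cort and Npy, since these 3 peptide genes moved together at 5 months. Sst lies at chr16:23890845-23890964, Cort at chr4:149126764-149126883, both on the minus strand, and Npy at chr6:49822590-49822709 on the plus strand. Capitals mark the cAMP response element TGACGTCA, or its core TGACG, which the full element contains. A core that lies on the opposite strand appears in the printed letters as CGTCA.
Sst: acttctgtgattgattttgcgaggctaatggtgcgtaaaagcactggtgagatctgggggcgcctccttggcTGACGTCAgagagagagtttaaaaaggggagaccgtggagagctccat
Cort: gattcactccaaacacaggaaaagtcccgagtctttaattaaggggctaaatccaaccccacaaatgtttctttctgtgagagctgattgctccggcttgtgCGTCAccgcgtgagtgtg
Npy: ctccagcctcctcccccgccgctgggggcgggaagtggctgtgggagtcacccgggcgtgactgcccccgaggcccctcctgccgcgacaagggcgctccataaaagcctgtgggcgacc
The window of Sst held 1 full element, 48 to 41 bases before the start. No other promoter of these genes held the full element within 250 bases upstream, and 1.55% of 32851 promoters in the table did. The core alone was found in 5 of the 7 genes with a promoter, Sst, Cort, Vip, Cck and Tac1, against 17.8% of all promoters, and these letters were not in the windows of Npy and Pvalb. A match of letters is a description of the sequence and not of binding.

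Values are counts that the authors normalized with DESeq2 separately for each age, called normalized counts here. Per library they summed to between 28086279 and 32383546, and the read depth behind them is not known. Tmem184b, the trapped gene, averaged 2394 ± 64.9 over the 4 wild types of 5 months, whereas the 3 mutants averaged 39.8 ± 7.4 (SD), and 2368 ± 38.4 against 41.3 ± 14.7 (SD, n = 3 each) at 15 months, so every library had the level its label calls for. The tissue carried the markers of its fields, with Prox1 of dentate granule cells at 993 to 1932 and Fibcd1 of CA1 at 6082 to 10796 over the 13 libraries. Some libraries stood apart in 10 choroid plexus genes such as Ttr. These summed to 89586 to 194305 in wild type mice 1, 3 and 4 at 5 months, and to 2636 to 6914 in wild type mouse 2 and the 3 mutants. At 15 months they summed to 35874 in mutant mouse 3 and to 2772 to 5068 in the other 5 mice.

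In wild types at 5 months the levels of the 10 genes, per kilobase of the longest annotated transcript, ran from 17576 ± 682 normalized counts per kilobase for Cck and 16130.5 ± 1618 for Sst (SD, n = 4) down to 63.4 ± 10.6 for Crh. The ranges of Cck and Sst over the 4 mice overlapped, at 16901 to 18446 and 14697 to 18197. Npy at 3772 ± 285 and Pvalb at 1499.9 ± 59.7 came next, followed by Calb2 at 991 ± 267 and Cort at 604 ± 64.6. Pnoc, Tac1 and Vip lay close together, at 161 ± 20.6, 157 ± 10.95 and 138 ± 19.6. The order of the means was the same at 15 months.

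At 5 months 3 peptides of the somatostatin class were lower in mutants by a similar factor, and so was Crh. Sst, the inhibitory peptide that names the class, had 13120, 11988, 10815 and 10597 normalized counts per wild type library, and the 3 mutant libraries had 8929, 6350 and 6166. Every mutant lay below every wild type. The fitted level in mutants was 60.8% of wild type, a log2 fold change of -0.72 (SE 0.13, adjusted p = 0.031, limma with Benjamini-Hochberg adjustment over 15563 genes).

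Cort encodes cortistatin, a peptide closely related to somatostatin that binds the same receptors. The wild type libraries held 461, 385, 362 and 427 of its normalized counts, the mutant ones 308, 211 and 237, again without overlap. Its log2 fold change was -0.71 (SE 0.15, adjusted p = 0.040, limma), or 61.2% of wild type.

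Npy encodes neuropeptide Y, which is found in many somatostatin cells and in neurogliaform and ivy cells. Wild type libraries held 2363, 2119, 1986 and 2071 normalized counts, and mutant libraries 1625, 1314 and 1119. The groups did not overlap, and mutant mouse 1 had the highest level of the 3 mutants for Npy, as it did for Sst and Cort. The log2 fold change was -0.67 (SE 0.12, adjusted p = 0.031, limma), or 62.8% of wild type.

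Crh, the corticotropin-releasing hormone of the stress response, is also made by a small set of hippocampal interneurons. It was the least abundant of the 10 genes, with wild types at 79.0, 104.5, 75.4 and 76.0 and mutants at 34.3, 41.0 and 46.9. All mutants were below all wild types, and here mutant mouse 1 was the lowest. The log2 fold change was -1.02 (SE 0.23, adjusted p = 0.0455, limma), or 49.3% of wild type. The highest Crh value, in wild type mouse 2, came from a library in which 5 hypothalamic peptide genes summed to 229 normalized counts, against 27.2 to 42.5 in the other 3 wild types and 11.6 to 31.5 in the mutants; Avp stood at 142.5 and Oxt at 70.1 in it. The part of such tissue in the Crh value was not tested, and without that mouse the log2 fold change was -0.91 (adjusted p = 0.129, limma).

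**Figure D1:**
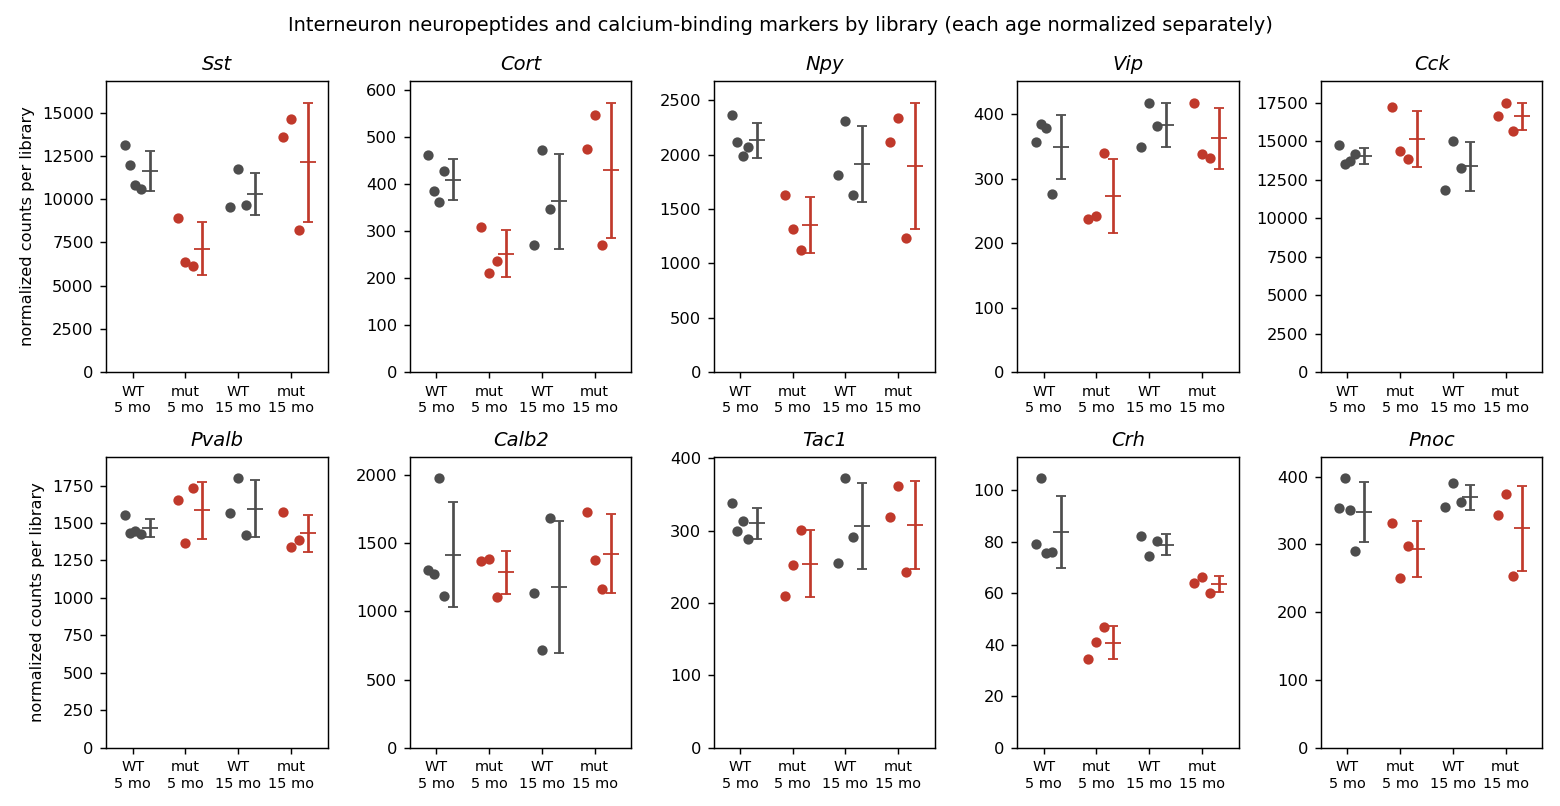
Normalized counts (vertical axis, from 0) of the 10 genes in every library; each point is 1 mouse, grey for wild type (WT) and red for mutant (mut), and the bar beside the points is the mean ± SD. At 5 months the red points of Sst, Cort, Npy and Crh all lie below the grey ones, whereas at 15 months only Cck (mutants higher) and Crh (mutants lower) are without overlap.

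The other interneuron classes did not pass the test at 5 months. The wild types had 358, 385, 378 and 277 normalized counts of Vip, and the mutants 238, 243 and 339, with a log2 fold change of -0.36 (SE 0.16, adjusted p = 0.246, limma). The groups overlapped through 1 mouse on each side. Tac1, the precursor of substance P, had a log2 fold change of -0.30 (SE 0.14, adjusted p = 0.269) and Pnoc, the precursor of nociceptin, of -0.25 (SE 0.14, adjusted p = 0.366). The 95% intervals of Vip, from -0.72 to 0.00, Tac1, from -0.61 to 0.02, and Pnoc, from -0.56 to 0.07, include 0 and do not leave out a difference as large as -0.5.

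The log2 fold changes of Pvalb, Cck and Calb2 lay between -0.11 and 0.11, and none passed the test. Pvalb, the calcium buffer of fast-spiking basket cells, spanned 1427 to 1552 normalized counts among wild types, a range inside that of the mutants, 1369 to 1732. Its log2 fold change was 0.11, with a 95% interval from -0.10 to 0.31. The gene lies on chromosome 15 (GRCm38 78191114 to 78206400), 1.15 megabases from Tmem184b, and is the only one of the 10 on the chromosome that carries the trap. Cck spanned 13504 to 14739 among wild types against 13833 to 17207 among mutants (log2 fold change 0.10, 95% interval -0.09 to 0.29). Calb2, which encodes calretinin and is also made by mossy cells, spanned 1111 to 1977 against 1103 to 1382 (log2 fold change -0.11, 95% interval -0.49 to 0.26), so its wild types alone differed by more than the genotypes did.

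In all, 4 of the 10 genes passed an adjusted p of 0.05 at 5 months, each lower in mutants, and 3 of the 9 besides Sst. The 9 were chosen with earlier results of these data known, so their share beside that of all genes is a description and not a test. Over all genes tested at this age 2.27% passed in either direction and 1.15% were lower. The median log2 fold change was -0.30 over the 9 genes and 0.00 over all genes. Groups without overlap were found for the same 4 genes, against 18.5% of all genes tested. The calls sat near the threshold and depended on single mice, as did the calls over all genes. With any 1 of the 4 wild types or mutant mouse 3 left out, 0 of the 10 genes passed (adjusted p of 0.055 to 0.133 for Sst, Cort, Npy and Crh, limma), while the log2 fold changes stayed between -0.54 and -1.13. With mutant mouse 1 left out, Sst, Cort and Npy passed, with an adjusted p for Sst of 0.00372 (limma), and with mutant mouse 2 left out Sst, Npy and Crh did. Over all genes 354 passed with every mouse in. Without wild type mouse 1, 2, 3 or 4 this number was 88, 107, 7 or 53, and without mutant mouse 3 it was 15. Without mutant mouse 1 or 2 it was 846 or 901. Counts of fits without 1 mouse given below for 5 months come from these same fits. A bulk measurement cannot tell fewer cells of a type from less RNA per cell.

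**Figure D2:**
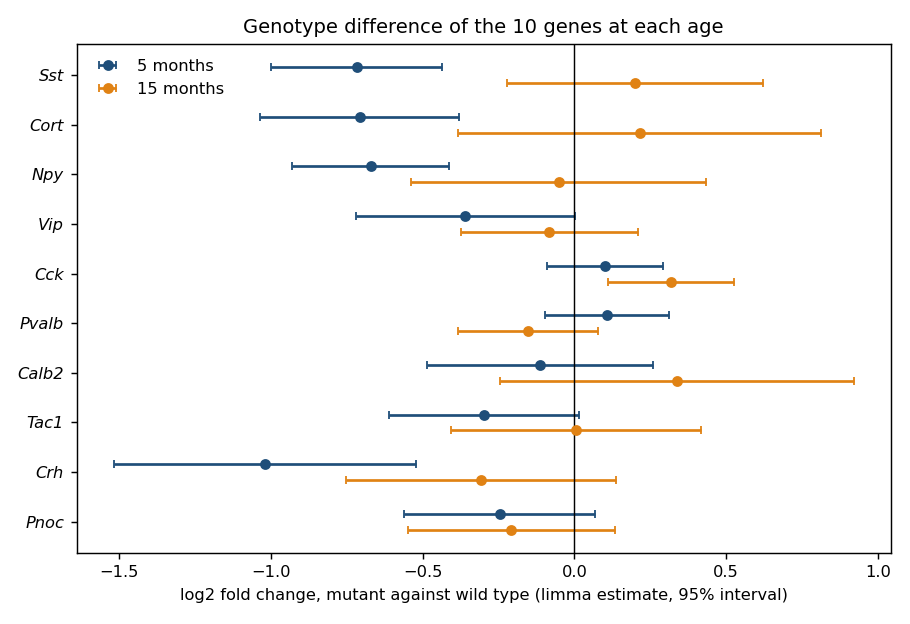
Log2 fold change of mutant against wild type (horizontal axis) for each gene at 5 months (blue) and 15 months (orange); points are limma estimates and bars 95% intervals. The blue intervals of Sst, Cort, Npy and Crh lie below 0, and of the orange intervals only that of Cck, from 0.11 to 0.53, lies to one side of 0.

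At 15 months none of the 10 genes passed the test, against 6.02% of 15541 genes, and 1 had an unadjusted p under 0.05. The wild types had 9541, 11727 and 9664 normalized counts of Sst and the mutants 13593, 14643 and 8211. Mutants 1 and 2 lay above every wild type and mutant 3 below every wild type. The log2 fold change was 0.20 (SE 0.19, 95% interval -0.22 to 0.62, adjusted p = 0.518, limma).

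Cort showed the same split. Its wild type libraries held 271, 471 and 347 and its mutant libraries 474, 546 and 269, and the log2 fold change was 0.22 (SE 0.27, adjusted p = 0.626, limma). For Npy the wild types had 1814, 2307 and 1628 and the mutants 2122, 2334 and 1234, with a log2 fold change of -0.05 (SE 0.22, adjusted p = 0.896, limma). For both genes mutant mouse 3 was the lowest of the 6 mice and mutant mouse 2 the highest.

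These values also depended on a correction made for GC content and transcript length together. With each library smoothed for both, the log2 fold changes at 15 months were -0.0200 for Sst, -0.0209 for Cort and -0.26 for Npy, while those at 5 months were -0.68, -0.69 and -0.60.

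Without mutant mouse 3 the values at 15 months differed. Sst then passed the test in the direction opposite to that at 5 months, with a log2 fold change of 0.46 (SE 0.09, adjusted p = 0.017, limma). Cck passed as well, at 0.36 (adjusted p = 0.033). Over all genes 1515 of 15515 passed in this fit, against 935 of 15541 with every mouse in. With mutant mouse 3 in and mutant mouse 2 out, the log2 fold change of Sst was 0.04 (adjusted p = 0.903). Mutant mouse 3 was also the library with the high choroid plexus sum, and its 12 immediate early genes summed to 35290 normalized counts, against 12739 to 21336 in the other 5 mice. The part of either in its low peptide levels was not tested.

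The older mutants had 64.0, 66.3 and 60.1 normalized counts of Crh, against wild types at 82.1, 74.3 and 80.1. The genotypes again did not overlap, but the log2 fold change of -0.31 (SE 0.20) did not pass (adjusted p = 0.335, limma). Cck, in contrast, had 16666, 17476 and 15675 normalized counts per mutant library against 11801, 15032 and 13246 per wild type library. All mutants were above all wild types, with a log2 fold change of 0.32 (SE 0.09, adjusted p = 0.065, limma), or 0.10 (adjusted p = 0.548) after the GC and length correction. These were the 2 genes of the 10 without overlap at this age, where 34.1% of all genes tested had none.

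The remaining 5 genes overlapped between genotypes at 15 months. Vip spanned 349 to 418 among wild types against 333 to 418 among mutants (log2 fold change -0.08). For Tac1 these ranges were 255 to 372 against 242 to 362 (log2 fold change 0.00), for Pnoc 355 to 391 against 253 to 374 (-0.21) and for Pvalb 1419 to 1799 against 1338 to 1571 (-0.15). Calb2 varied most among wild types, 720 to 1683 against 1163 to 1732 among mutants (log2 fold change 0.34, 95% interval -0.24 to 0.92).

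The change of the genotype difference with age was tested in 1 fit of all 13 libraries. The difference at 15 months minus that at 5 months was 0.92 on the log2 scale for Sst (SE 0.25, adjusted p = 0.072, limma), 0.92 for Cort (SE 0.33, adjusted p = 0.137), 0.62 for Npy (SE 0.27, adjusted p = 0.209) and 0.71 for Crh (SE 0.28, adjusted p = 0.163). None of the 10 genes passed, against 1.75% of 15340 genes, and 4 had an unadjusted p under 0.05. Pvalb was the only gene of the 10 with a negative value, -0.26 (SE 0.14, adjusted p = 0.315). Without mutant mouse 3 of 15 months Sst (1.18, adjusted p = 0.013, limma), Cort (1.23, adjusted p = 0.029) and Npy (0.90, adjusted p = 0.029) passed, and without mutant mouse 1 of 5 months Sst did (1.09, adjusted p = 0.014). Over all genes 552 passed without the former mouse and 2111 without the latter, against 268 with every mouse in. In the other 11 fits without 1 mouse 34 to 249 of all genes passed. In 11 of the 13 fits without 1 mouse Sst did not pass (adjusted p up to 0.168, limma). Cort and Npy did not in 12 of 13 (up to 0.268 and 0.397). After the GC and length correction the value was 0.66 for Sst (adjusted p = 0.124, limma), 0.67 for Cort (0.218) and 0.34 for Npy (adjusted p = 0.446). Crh was then at 0.54 (0.326) and Pvalb at -0.47 (0.075).

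The levels of Sst, Npy and Cort also moved together from mouse to mouse inside the groups. Over the 13 libraries, as log2 deviations from the mean of each group, Npy followed Sst with Pearson's r = 0.96 and Spearman's rho = 0.86 (exact permutation within groups, two-sided, adjusted p = 0.00694 and 0.0208 over 9 genes), and ranked 4 of 15339 genes. Cort had r = 0.90 and rho = 0.81 (exact permutation, adjusted p = 0.0174 and 0.0269), Pnoc r = 0.83 and rho = 0.80 (exact permutation, adjusted p = 0.0174 and 0.0208), and Cck r = 0.74 and rho = 0.81 (exact permutation, adjusted p = 0.0174 and 0.0269). By r Cort ranked 53, Pnoc 192 and Cck 498 of 15339, so many genes outside the list followed Sst as closely as these 3. The permutation tests against no relation at all, and not against a movement that many genes share. Without the 2 mice farthest from the median of Sst, mutant mouse 1 of 5 months and mutant mouse 3 of 15 months, r was 0.92 for Npy, 0.82 for Cort, 0.70 for Pnoc and 0.72 for Cck.

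Crh did not follow Sst. Its r was -0.12 and its rho -0.15 (exact permutation, adjusted p = 0.780 and 0.726), although the gene was lower in the same mutants at 5 months. For Vip r was 0.10, for Calb2 0.05, for Pvalb 0.35 and for Tac1 0.41, with adjusted p from exact permutation of 0.506 to 0.845. Among the genes most like Sst by r were Gfra4 (0.97), Bmyc (0.97), Npy (0.96) and Atp6v0b (0.96). Npy alone among these 4 passed the genotype test at 5 months, and Gfra4 had a log2 fold change of -0.08 there. Libraries share their depth and base composition across genes. After each library was smoothed for GC content and transcript length, r with Sst was 0.94 for Npy, 0.85 for Cort and 0.82 for Pnoc, but 0.49 for Cck.

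**Figure D3:**
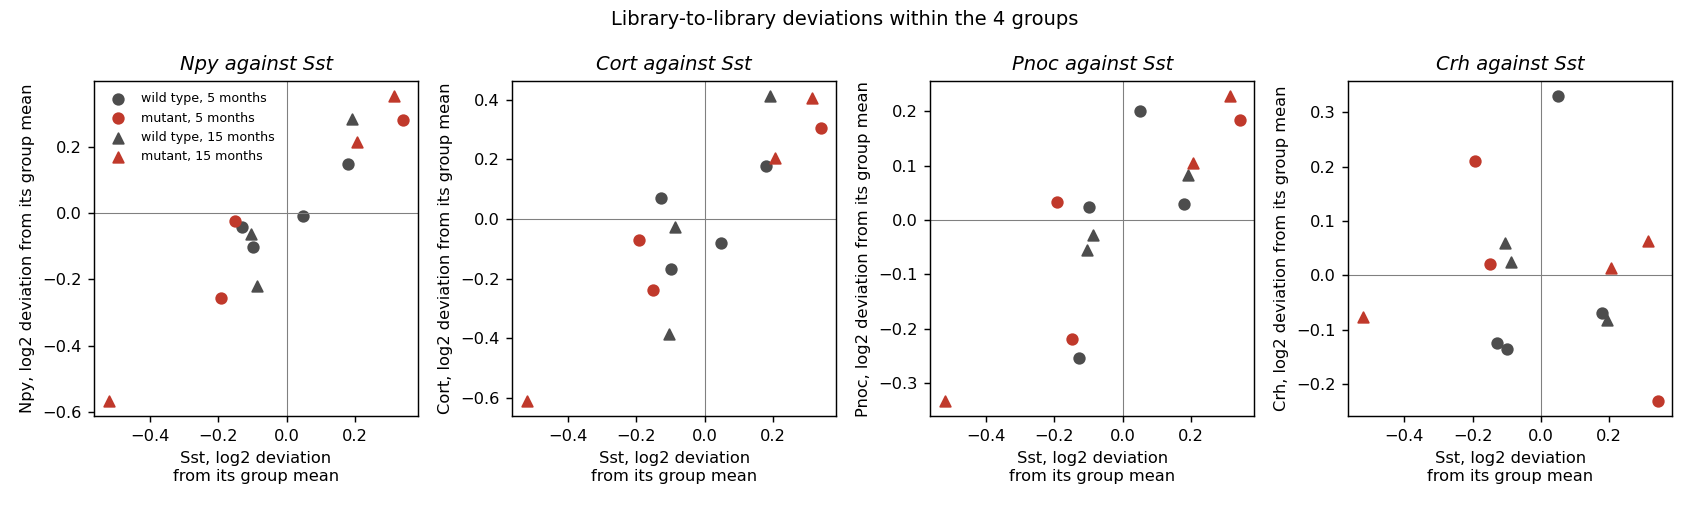
Log2 deviation of Npy, Cort, Pnoc and Crh from the mean of their group (vertical axes) against that of Sst (horizontal axis); each point is 1 of 13 libraries, circles for 5 months, triangles for 15 months, grey for wild type and red for mutant. Npy, Cort and Pnoc lie along a rising line with mutant mouse 3 of 15 months at its lower left end, and Crh does not.

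The genes that all GABAergic neurons share had smaller fold changes than the 4 peptide genes at 5 months. Gad1, which makes most GABA, spanned 5322 to 6019 normalized counts among wild types against 4940 to 5132 among mutants (log2 fold change -0.19, SE 0.07, adjusted p = 0.150, limma). Gad2 had a log2 fold change of -0.25 (adjusted p = 0.195) and Slc32a1, which loads GABA into vesicles, of -0.04 (adjusted p = 0.863). None of 11 shared GABAergic genes passed at 5 months, where 2.27% of all genes did, and their median log2 fold change was -0.04.

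Taken within each library as a log2 ratio to the mean of Gad1, Gad2 and Slc32a1, a measure that the scaling of a library hardly alters, Sst was at 1.72 ± 0.07 (SD) over the 4 wild types against 1.16 ± 0.27 over the 3 mutants of 5 months. The ratio of Cort was lower by -0.55 (SE 0.16), that of Npy by -0.51 (SE 0.15) and that of Crh by -0.86 (SE 0.17) in mutants. None of these 4 ratios overlapped between genotypes, and each reached the smallest exact permutation p that 4 against 3 mice allow, 0.0571 two-sided. The ratios of Cck (0.26, SE 0.09) and Pvalb (0.27, SE 0.09) were higher in mutants, also without overlap and with the same exact permutation p. Ratios were computed for the 10 genes only, so no share over all genes stands beside these. For plain values 18.5% of all genes tested had no overlap at this age. The log2 fold changes of the reference genes, -0.19, -0.25 and -0.04, were below 0, which raises every ratio in mutants. At 15 months the ratio of Sst was 0.40 (SE 0.22) higher in mutants (exact permutation p = 0.200, where 3 against 3 mice allow 0.1). Cck, 0.52 (SE 0.11) higher, was the only ratio to reach that limit.

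The reference genes did not stand still at 15 months either. Gad2 passed the test, with mutants at 1890, 2174 and 1529 and wild types at 2628, 2631 and 2680 (log2 fold change -0.52, SE 0.11, adjusted p = 0.039, limma). It was the only one of the 11 shared genes to do so, where 6.02% of all genes passed. With any 1 mouse but mutant 2 or 3 left out Gad2 did not pass (adjusted p up to 0.140, limma), nor after the correction for GC content and transcript length (-0.28, adjusted p = 0.208). Without 1 of the wild types or mutant 1, though, no more than 1 to 11 of all genes passed. Without mutant 2 or 3 this number was 1526 or 1515. Counts of fits without 1 mouse given below for 15 months come from these same fits. Gad1 was at -0.26 (adjusted p = 0.055) and Slc32a1 at 0.18 (adjusted p = 0.092), so that the genes of GABA synthesis and of its vesicular transport lay on opposite sides of 0, except after that correction, where Slc32a1 was at -0.07.

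Few genes that mark the lineages of these cells passed. Of 14 genes of the Sst and Pvalb lineage tested, 0 passed at 5 months and 1 at 15 months, where 6.02% of all genes passed, Kcnc2, a potassium channel of fast-spiking cells (log2 fold change -0.31, SE 0.08, adjusted p = 0.048, limma, held in 1 of the 6 fits without 1 mouse, and -0.12 with adjusted p = 0.461 after the GC and length correction). Lhx6, the transcription factor of the whole lineage, had a log2 fold change of 0.10 at 5 months (adjusted p = 0.772) and 0.18 at 15 months (adjusted p = 0.203). Of 12 genes of the Vip, Cck and Calb2 lineage 1 passed at 5 months, where 2.27% of all genes passed, and 0 at 15 months. It was Htr3a, the serotonin receptor channel of caudal interneurons, with wild types at 325, 458, 427 and 465 and mutants at 275, 167 and 240 (log2 fold change -0.90, SE 0.19, adjusted p = 0.039, limma). The call on Htr3a held in 3 of the 7 fits without 1 mouse. The lists had median log2 fold changes of 0.00 and -0.01 at 5 months and -0.17 and -0.13 at 15 months, beside 0.00 and 0.02 over all genes.

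Among the receptors through which these products act, 0 of 16 tested passed at 5 months, where 2.27% of all genes did. Their median log2 fold change was 0.10. Values for the somatostatin and cortistatin receptors were 0.12 for Sstr1, 0.12 for Sstr2, 0.29 for Sstr3 and 0.10 for Sstr4. Npy1r stood at 0.23, Npy2r at -0.22, Cckbr at 0.24, Crhr1 at 0.01 and Oprl1, the nociceptin receptor, at -0.20. At 15 months 1 of 17 passed, near the 6.02% of all genes. It was Sstr4, with mutants at 141, 235 and 118 and wild types at 294, 296 and 319 (log2 fold change -0.94, SE 0.23, adjusted p = 0.048, limma). In 4 of the 6 fits without 1 mouse it did not pass, nor after the GC and length correction (-1.16, adjusted p = 0.064).

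Peptides outside the list and the genes that process and pack peptides mostly did not pass. Over all genes 2.27% passed at 5 months and 6.02% at 15 months. None of 12 other neuropeptide genes passed at either age, with median log2 fold changes of -0.09 and 0.09. Of 13 genes of peptide processing and dense core granules 0 passed at 5 months, and at 15 months Pcsk1, a prohormone convertase, did (log2 fold change -0.53, SE 0.13, adjusted p = 0.048, limma; without 1 mouse the call held in 1 of 6 fits, and after the GC and length correction the value was -0.31 with adjusted p = 0.334). None of 14 other genes of calcium-binding proteins passed at either age.

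Immediate early genes are switched on in neurons by activity. All 12 immediate early genes tested had a negative log2 fold change at 5 months (median -0.74) and all 12 a positive one at 15 months (median 0.96). Of these 1 passed at 5 months, where 2.27% of all genes passed. It was Npas4 (log2 fold change -0.72, adjusted p = 0.036, limma, a call that held in 2 of the 7 fits without 1 mouse). At 15 months 7 passed, where 6.02% of all genes did, among them Npas4 at 1.29, Junb at 0.95, Egr4 at 0.76 and Fos at 1.60 (each held in 2 of the 6 fits without 1 mouse). Of these 4, Npas4 alone passed at 15 months after the GC and length correction, and Egr4 was then at 0.45 (adjusted p = 0.091). At 5 months all 4 passed after that correction, at -0.77 for Npas4, -0.69 for Junb, -0.84 for Egr4 and -1.66 for Fos (adjusted p of 0.0136 to 0.0434, limma). In that fit 919 of 15345 genes passed. Wild type mouse 1 of 5 months had the highest Sst, 13120, with the lowest immediate early sum of its group, 15243, inside the mutant range of 12180 to 16591, and mutant mouse 3 of 15 months had the lowest Sst of its age with the highest sum. Whether the immediate early genes have a part in the peptide difference was not tested.

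Choroid plexus RNA differed between the genotypes at 5 months as well. There 4 of 10 choroid plexus genes passed (Ttr, Clic6, Slc4a5 and Kcne2, all lower in mutants), against 2.27% of all genes. At 15 months 0 of 10 did, against 6.02% of all genes. The wild type library low in it, mouse 2, had 11988 normalized counts of Sst, 385 of Cort and 2119 of Npy, above all 3 mutants for each gene. With this 1 wild type against the 3 mutants the log2 fold changes were -0.77 for Sst, -0.63 for Cort, -0.66 for Npy and -1.35 for Crh. This wild type is also the mouse with the high hypothalamic sum and the highest Crh. The part of choroid plexus RNA in the peptide difference was not tested. At both ages 0 of 7 genes tested passed for neocortex, 0 of 7 for thalamus and 0 of 6 for striatum, beside the same shares of all genes. The neocortex list summed at 5 months to 3169 to 5079 per wild type library against 4438 to 6794 per mutant library. All 7 of its tested genes had a log2 fold change above 0 at that age, against 4 of 7 for thalamus and 3 of 6 for striatum.

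**Figure D4:**
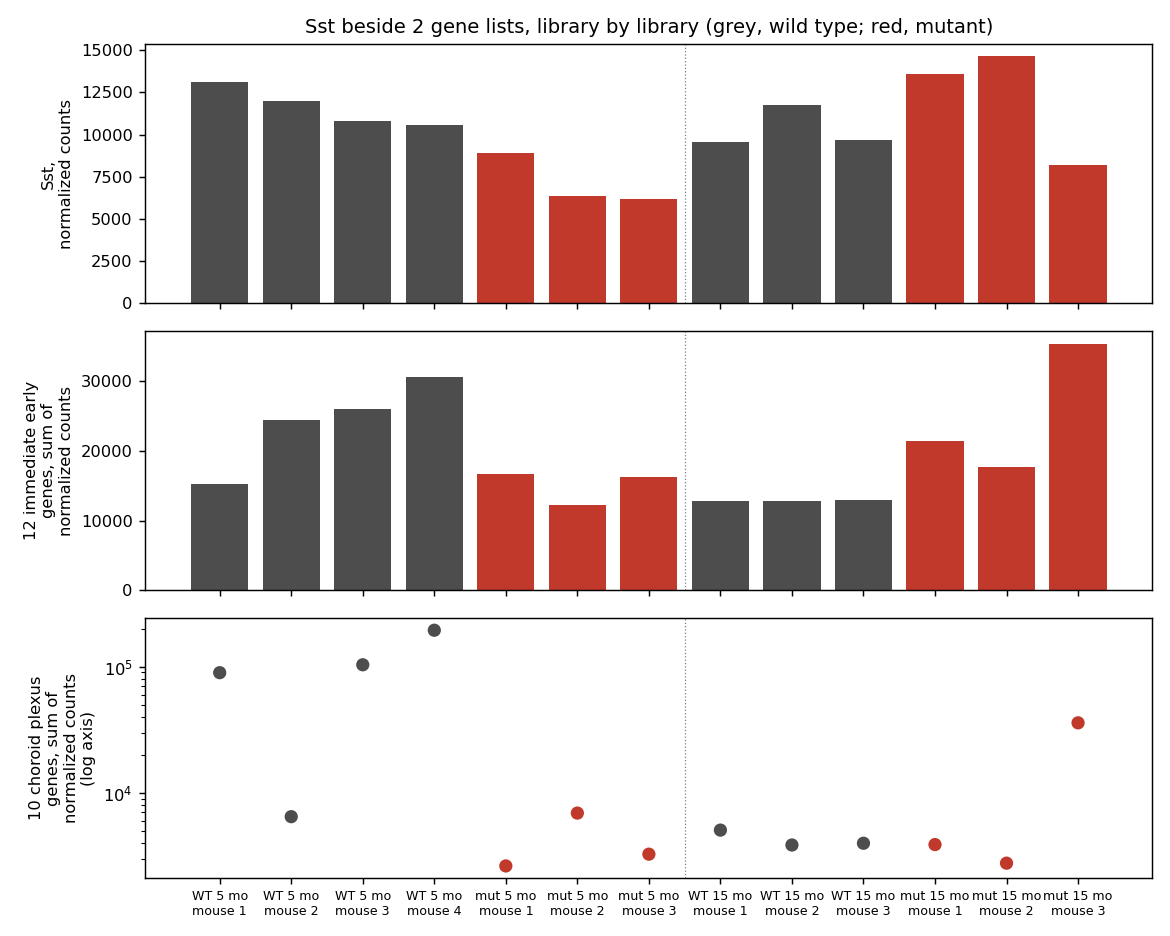
Normalized counts of Sst (top), the sum of 12 immediate early genes (middle) and the sum of 10 choroid plexus genes (bottom, log axis) in each of 13 libraries, grey for wild type and red for mutant. Wild type mouse 1 of 5 months has the highest Sst of its age with an immediate early sum of 15243, wild type mouse 2 has high Sst with little choroid plexus RNA, and mutant mouse 3 of 15 months has low Sst with high values in both lower panels.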

How the data were processed

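RNA-seq of 13 mouse hippocampi was analysed. The authors quantified reads with Salmon (0.11.1 per the labels, mm10) and normalized gene counts with DESeq2 for each age. The deposited values are such normalized counts, a signal without raw counts. Whole reads could not be recovered, since 36.7 to 68.9% of values per library came out whole within 0.02, so sequencing depth is unknown and levels are not tested across ages. For each age, genes with a mean of at least 10 were fitted as log2(value + 1) with limma (3.58.1, R 4.3.3, trended prior), with Benjamini-Hochberg adjustment over all genes tested and a threshold of 0.05. Fold changes are on that scale and understate those of low genes. The difference between ages was an interaction over 13 libraries. Ratios used exact permutation (scipy 1.17.1). The fits were tested on simulated data. Positions, transcript lengths and GC content came from GENCODE M21 (GRCm38). Mice of a group are separate samples per the labels. Named genes were the 10 genes, Tmem184b, up to 4 genes per list that passed at either age, the main GABAergic genes and receptors, and the 5 genes most like Sst, 1 of which is not reported here. The genes and lists were chosen with earlier results of these data known. Alternatives covered pseudocount, filter, scaling, GC and length, replicate block, shared fits and each mouse left out, and 2 were added after seeing the data: fits without the wild types rich in choroid plexus RNA, and likeness after the GC and length correction.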

Additional observations from a re-analysis of the deposited data

Results flagged for a closer look

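In the wild types at 5 months 1 of the 4 mice stood far from the others for 2 of the 14 genes examined this way, where chance gives 0.7. The gap to the next mouse took 0.852 of the range for Pvalb (mouse 1, the highest) and 0.878 for Crh (mouse 2, the highest), each above the critical value for 4 samples.

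The genotype difference changed with age, by an interaction test with adjusted p under 0.05 (limma), for none of the 10 genes but for 8 genes of the lists. Over all 15340 genes tested 1.75% passed. On the log2 scale the difference at 15 months minus that at 5 months was 3.27 for Fos, 1.55 for Junb, 1.41 for Egr4, 2.01 for Npas4, 2.01 for Dusp1 and 1.57 for Btg2, all immediate early genes. It was -0.92 for Dsp and -1.31 for Synpo2. With 1 mouse left out the call on Fos held in 5 of 13 fits, that on Junb in 12, and those on Npas4 and Egr4 in all 13. In these fits 34 to 2111 of all genes passed.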

How the results depend on the processing

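The 10 genes were refitted under each alternative. At 5 months 4 passed, and 2 did after quantile normalization (Sst, Npy), in 1 fit of 13 libraries (Sst, Crh) and with a replicate block plus the GC and length correction (Sst, Npy). The fit without the wild types rich in choroid plexus RNA leaves 1 wild type and is given by its log2 fold changes only. With 1 mouse left out 0 to 3 of the 10 genes passed. Without the filter on low values 3 did, and Crh did not (adjusted p = 0.0659, limma). At 15 months 0 passed, and 0 to 2 without 1 mouse. The age difference gave 0, and 0 to 3 without 1 mouse. Over all genes the fits without 1 mouse gave 7 to 901 at 5 months and 1 to 1526 at 15 months. For the age difference they gave 34 to 2111. Ratios at the smallest exact p numbered 7 over both ages, and 7 to 11 without 1 mouse. Fewer mice raise the smallest p and make it easier to reach, so this count does not show how stable the ratios are.

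The replicate numbers did not pair the mice: deviations of same-numbered mice correlated at -0.09 to 0.06 at 5 months and 0.01 to 0.16 at 15 months. With the replicate block 0 genes passed at 5 months (Sst adjusted p = 0.055, limma) and 1 at 15 months (Cck, adjusted p = 0.041), of 9 and 1595 genes in all.

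Signs turned for values near 0. At 5 months these were Cck with quantile normalization (-0.0655) and Calb2, which ranged from -0.22 to 0.059 without 1 mouse and stood at 0.00309 without the choroid-rich wild types. At 15 months they were Sst (-0.0200) and Cort (-0.0209) with the GC and length correction, with or without the block, and, without 1 mouse, Npy (-0.23 to 0.23) and Tac1 (-0.12 to 0.17). For the age difference they were Cck with that correction (-0.0242, and -0.0179 with the block) and Pnoc (-0.0612 with it, and -0.076 to 0.20 without 1 mouse). The correction moved all calls from 354 to 919 at 5 months and from 935 to 41 at 15 months, and at 5 months kept Sst, Cort, Npy and Crh past the threshold. Crh has no fit at a mean of at least 100. The cause of these moves was not tested.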

Other observations

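Other cells of the hippocampus are given as counts of marker genes that passed an adjusted p of 0.05 (limma), beside 2.27% of all genes at 5 months and 6.02% at 15 months. Of 7 genes of dentate granule cells 0 passed at 5 months and 2 at 15 months, Dsp and Pdzd2, both lower in mutants. All 7 had a log2 fold change above 0 at 5 months, and 1 of the 7 did at 15 months. At 5 months they summed to 10941 to 12733 normalized counts per wild type library against 13022 to 14587 per mutant library. Of 5 genes of CA1 pyramidal cells 1 passed at 5 months, Pou3f1, which was higher, and 0 at 15 months, and of 7 genes of CA2 and CA3 0 passed at either age. At 5 months all 5 CA1 genes and 4 of the 7 of CA2 and CA3 had a log2 fold change above 0. At 15 months 3 of the 5 and 3 of the 7 did. The CA1 list summed at 5 months to 21032 to 22316 per wild type library against 23588.5 to 30992 per mutant library. Mossy cells, which also make calretinin, had 0 of 3 genes past the threshold at 5 months and 0 of 4 at 15 months, with lists that summed to 272 to 318 normalized counts per wild type library against 291 to 348 per mutant library at 5 months. Cajal-Retzius cells, another source of calretinin, had 0 of 3 at both ages, and immature granule neurons 0 of 5. Of 15 genes of glia and endothelium 1 passed at 5 months, the astrocyte gene Gfap, which was higher in mutants, and 4 at 15 months.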
